A study of Arabidopsis thaliana with 13 samples.

Results

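Late embryogenesis abundant (LEA) proteins are hydrophilic proteins that accumulate in the embryo late in seed maturation and are known for their part in desiccation tolerance. Most of their genes respond to abscisic acid (ABA), and the transcription factors ABI3 and ABI5 activate several of them in the maturing seed. The mRNAs are stored in the dry seed and are lost as a seed moves towards germination, while some family members are also induced by cold, drought or oxidative stress in vegetative tissue. The 51 LEA genes described here were chosen by family membership and not by expression, out of 37184 genes in the dry seed counts and 37336 genes in the single-seed counts. They form 9 subgroups: 18 LEA_4 genes, 10 dehydrins, 6 seed maturation protein (SMP) genes, 4 LEA_3 genes, 3 LEA_1, 3 LEA_2 and 3 PvLEA18 genes, 2 LEA_5 genes and 2 AtM genes.

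All seeds were of Arabidopsis thaliana accession Col-0, after-ripened in dry storage for at least 6 months, and the study asked whether seed size is reflected in the transcriptome. In the dry seed experiment, 4 seed pools were each sorted into small, medium and large seeds, and 100 seeds of each size gave a library (4 libraries for a size). In the imbibed seed experiment, small and large seeds were kept on wet paper in the dark at 30°C, which induces secondary dormancy, either for 3 days (3d) or for 7 days followed by 24 h of recovery in constant light (7d24h). Each of these 4 groups held 96 seeds sequenced one by one, in 3 libraries of 32. A library of 32 seeds is the replicate for imbibed seeds, and the methods of the study describe seeds of one pool divided into libraries, so p-values measure the spread between such divisions, which may be technical, and not between plants or seed lots. A whole seed was extracted, so fewer cells of a type and less mRNA in each cell cannot be told apart.

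The libraries held 554305 to 2079317 counts on genes in dry seeds and 2326352 to 5851052 in imbibed seeds, and single seeds 3962 to 463684. Levels are given as CPM, counts scaled to a common library size, corrected by trimmed mean of M-values (TMM) factors, which set most genes to no change between groups. The reads come from the 3′ ends of mRNAs, so that a level does not depend on transcript length, and dry and imbibed seeds were scaled separately. As a check of the tissue, 15 storage protein and oil body genes took 11.8 to 26.1% of the counts in dry seeds. The 5 seed coat genes looked at did not exceed 2.41 CPM in any library. Of 3 endosperm genes, EPR1 lay between 26121 and 45286 CPM in dry seeds and did not exceed 345 CPM in imbibed seeds. The other 2 did not share this course. AT5G66460 did not exceed 5.45 CPM in dry seeds and lay between 41.7 and 95.2 CPM at 7d24h. AT1G49770 did not exceed 0.532 CPM in any library.

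The sequence upstream of the genes is shown for the members on which the results below turn. In the RefSeq annotation of TAIR10.1, which matched all 51 genes, the 250 bases before the annotated start held ACGTG, the core of the ABA-responsive element, on either strand in 36 of 51 members (70.6%), against 22.9% of 27443 promoters of the same length. A palindromic CACGTG counts on both strands. CCGAC, the core of the drought-responsive element, was found in 18 members (35.3%, against 11.97% of all), and CATGCA, the core of the RY element, in 9 (17.6%, against 8.43%). Capitals mark ACGTG or CACGT, and each sequence is written 5′ to 3′ on the strand of its gene. AT3G02480 had the largest difference between dry seed sizes, AT3G15670 was the most abundant LEA_4 gene of dry seeds, and EM1 and EM6 are the LEA_5 pair. Of this pair EM1 was called between dry seed sizes and EM6 was not. SAG21 was among the members that rose with time and has no ACGTG in this window. Of the others named below as rising in both sizes, COR47 has none either, while AT3G02480, DI21, AT2G46140 and AT1G54410 hold it. M17 and ECP31, also without ACGTG, fell. The relation of the motif to the course over time was not tested.
AT3G02480, chr3:511970-512219, plus strand: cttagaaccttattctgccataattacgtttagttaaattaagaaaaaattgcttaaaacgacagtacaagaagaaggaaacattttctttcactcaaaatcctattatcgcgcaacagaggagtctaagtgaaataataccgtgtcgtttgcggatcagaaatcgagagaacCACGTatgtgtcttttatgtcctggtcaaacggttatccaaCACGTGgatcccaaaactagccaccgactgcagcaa
AT3G15670, chr3:5310989-5311238, minus strand: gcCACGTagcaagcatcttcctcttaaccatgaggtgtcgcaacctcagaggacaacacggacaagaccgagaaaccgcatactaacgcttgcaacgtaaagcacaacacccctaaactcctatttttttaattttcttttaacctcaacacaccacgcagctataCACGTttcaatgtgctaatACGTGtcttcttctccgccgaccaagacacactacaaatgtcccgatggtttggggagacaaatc
EM1, chr3:19214472-19214721, plus strand: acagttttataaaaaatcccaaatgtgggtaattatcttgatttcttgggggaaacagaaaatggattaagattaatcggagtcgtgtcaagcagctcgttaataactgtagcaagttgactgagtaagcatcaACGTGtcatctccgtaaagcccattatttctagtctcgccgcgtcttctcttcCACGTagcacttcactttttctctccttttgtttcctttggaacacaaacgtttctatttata
EM6, chr2:16780369-16780618, minus strand: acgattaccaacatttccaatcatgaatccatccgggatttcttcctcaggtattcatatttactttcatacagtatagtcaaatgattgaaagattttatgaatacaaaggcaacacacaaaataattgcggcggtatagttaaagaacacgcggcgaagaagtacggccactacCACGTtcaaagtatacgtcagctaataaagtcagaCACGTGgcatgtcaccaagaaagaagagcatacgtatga
SAG21, chr4:1047106-1047355, minus strand: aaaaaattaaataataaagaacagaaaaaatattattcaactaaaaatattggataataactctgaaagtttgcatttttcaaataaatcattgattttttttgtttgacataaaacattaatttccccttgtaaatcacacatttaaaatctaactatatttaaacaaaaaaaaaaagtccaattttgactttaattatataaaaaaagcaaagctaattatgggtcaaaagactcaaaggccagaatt

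LEA mRNAs were among the most abundant of the dry seed. Of the 51 genes, 22 had a mean above 1000 CPM and the same number stood among the 100 most abundant genes, with RAB18, an ABA-responsive dehydrin, at the top of all genes. AT3G15670 (LEA_4) and EM6 followed within the family. At the other end, 16 members were too low to be tested, 5 of them (AT3G53770, AT2G03740, AT2G03850, AT4G13230 and AT2G33690) without a count in the 12 libraries. The 16 include 5 of the 10 dehydrins, among them COR47, ERD10 and ERD14, which are known from cold-treated and ABA-treated vegetative tissue, and both COR15A and COR15B, whose products protect the chloroplast in the cold. Over the 12 libraries their means were 0.45 CPM for COR47, 0.89 for ERD10, 5.5 for ERD14, 0.1 for COR15A and 0.58 for COR15B.

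When small and large dry seeds were compared, 18 of the 35 members tested differed (edgeR quasi-likelihood test, false discovery rate (FDR) below 0.05), 15 of them higher in small seeds and 3 lower. Of all 8234 genes tested, 14.7% were called, 8.46% as higher and 6.24% as lower in small seeds. The median log2 difference of the members tested was 0.15, against -0.01 for all genes. These splits depend on scaling. With library totals in place of TMM factors, the median of all genes moved by -0.38 on the log2 scale, and 8 members were called higher and 14 lower. Relative to that median the members then stood higher as before (member median -0.21 against -0.40), and 11 of the 18 calls remained.

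**Figure D1:**
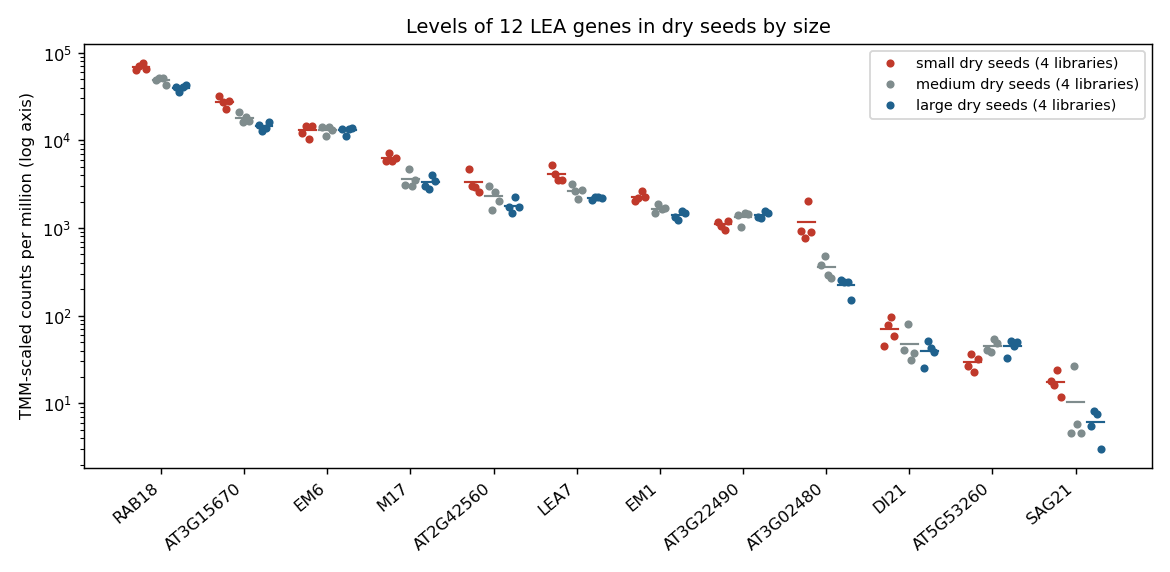
Levels of 12 LEA genes in each dry seed library. The y axis is TMM-scaled CPM on a log axis; points are the 4 libraries of a size and short lines their means. RAB18 lies between 63542 and 75675 CPM in small seeds and between 35500 and 43136 CPM in large seeds, while EM6 overlaps in all 3 sizes.

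The dehydrins split into 2 genes that depended on size and 3 that were not called. RAB18 (chr5:26518277-26519447) lay at 63542, 70528, 75675 and 65870 CPM in small, at 48548, 51754, 51960 and 42560 in medium and at 40310, 35500, 40227 and 43136 in large seeds. The 3 sizes did not overlap between small and the others, and small seeds exceeded large ones by 0.79 ± 0.13 on the log2 scale (SE, FDR = 1.7e-05, edgeR), a 1.73-fold difference. LTI30, a cold-induced and ABA-induced dehydrin, had 2479, 2077, 2077 and 1907 CPM in small, 1620, 1596, 1440 and 1622 in medium and 1396, 1381, 1421 and 1533 in large seeds. Again every small seed library was above every other one (log2 difference from large 0.58 ± 0.12, FDR = 0.00045, edgeR). The dehydrin gene AT2G21490 was the next most abundant, with means of 7825 ± 819 CPM in small, 7610 ± 744 in medium and 7233 ± 473 in large seeds (SD, n = 4), and its difference was within the spread (0.11, FDR = 0.60). XERO1, at means of 1566, 1593 and 1576 CPM in small, medium and large seeds (-0.01), and AT4G39130 (-0.16) were not called either.

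LEA_4 proteins, thought to fold into helices on drying, gave the largest group of calls, with 8 of 12 genes tested higher in small seeds and none lower. AT3G15670 (chr3:5309886-5310988) had 31838, 27318, 22682 and 27991 CPM in small, 21072, 16042, 18661 and 16460 in medium and 14799, 12764, 13838 and 16126 in large seeds. Its small seed libraries all lay above the others, and the log2 difference between small and large was 0.93 ± 0.13 (FDR = 1.4e-06, edgeR). AT3G02480 (chr3:512220-513036), whose promoter has 2 of the marked motifs, was the member with the largest difference. It had 935, 765, 2025 and 910 CPM in small, 382, 482, 289 and 271 in medium and 254, 242, 245 and 152 in large seeds. Small seeds exceeded large ones 5.22-fold (log2 2.38 ± 0.20, FDR = 2.2e-12, edgeR) with no overlap among the libraries of small and the other sizes, and the log2 difference stayed between 1.96 and 2.53 under every alternative run, which include leaving out the library at 2025 CPM.

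Among the other LEA_4 genes, LEA7 had 5284, 4152, 3546 and 3528 CPM in small and 2105, 2236, 2236 and 2190 CPM in large seeds, a log2 difference of 0.91 ± 0.13. AT2G42560 had 4691, 3029, 2964 and 2580 CPM in small and 1737, 1474, 2244 and 1750 CPM in large seeds (0.88 ± 0.16). Neither gene overlapped between the 2 sizes. Smaller differences were found for ECP63, related to an embryogenic cell protein of carrot (0.53), AT4G21020 (0.53), AT3G53040 (0.48) and AT3G17520 (0.39, FDR = 0.046). The calls of AT3G17520, AT3G53040 and ECP63 were lost without the first small seed library, and that of AT3G17520 also with 6 other single libraries left out. The 4 tested genes not called were AT4G36600 (0.23), AT5G44310 (0.15), AT2G18340 (-0.01) and AT1G72100 (-0.03).

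Of the LEA_5 pair, EM1 was called and EM6 was not. EM1 (chr3:19214722-19215831) lay at 2030, 2200, 2632 and 2240 CPM in small, 1479, 1866, 1634 and 1687 in medium and 1329, 1246, 1575 and 1476 in large seeds, without overlap between small seeds and the other sizes (0.70 ± 0.12 against large, FDR = 5.0e-05, edgeR). EM6 (chr2:16779552-16780368) was more abundant, with 12195, 14537, 10424 and 14722 CPM in small, 14366, 11326, 14287 and 12948 in medium and 13377, 11206, 13301 and 13923 in large seeds, and the sizes overlapped. Its log2 difference was 0.00 ± 0.13, and the difference between the 2 genes' size effects was not tested. In the AtM pair, both seed proteins encoded side by side on chromosome 2, M17 was called and M10 was not, and this difference was not tested either. M17 had 5806, 7079, 5864 and 6366 CPM in small, 3055, 4727, 2972 and 3566 in medium and 3034, 2798, 4029 and 3427 in large seeds, and small seeds did not overlap with the others (0.92 ± 0.14, FDR = 3.7e-06, edgeR). M10 had 4392 ± 247 CPM in small and 5091 ± 145 in large seeds and was not called (-0.21, FDR = 0.23).

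The 3 members called lower in small seeds were all SMP genes, of 5 tested. With library totals 14 members were called lower, and these came from other subgroups too. AT3G22490 had 1178, 1041, 960 and 1210 CPM in small and 1349, 1293, 1547 and 1501 in large seeds, with every small seed library below every large one (-0.38 ± 0.12, FDR = 0.033, edgeR). The neighbouring genes AT5G53260 and AT5G53270 were low. AT5G53260 had 26.8, 36.2, 22.9 and 32.2 CPM in small and 33.1, 51.6, 45.3 and 49.7 CPM in large seeds (-0.71). AT5G53270 had 5.95, 6.03, 9.02 and 5.09 CPM in small and 12.1, 19.3, 16.8 and 6.09 CPM in large seeds (-1.03), and both genes overlapped between sizes. Their 3′ ends are 90.8% identical over 437 bases, so reads could be exchanged between them. All 3 calls were lost without the third small seed library, that of AT3G22490 also without small seed library 2 or large seed library 1, 3 or 4, that of AT5G53260 also without the second large one, and that of AT5G53270 without any of 7 libraries in all. With the seed pool as a block AT5G53270 was not called (17 calls in all), and the other 17 were kept. ECP31, the most abundant SMP gene, had 2645, 2704, 2200 and 2573 CPM in small and 2612, 2372, 2756 and 2660 CPM in large seeds, which overlapped (-0.04), and RAB28 was not called either (-0.12).

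Of the smaller subgroups, both LEA_3 genes tested were higher in small seeds. SAG21, a stress-induced and senescence-induced member whose product goes to mitochondria, had only 3 to 40 counts in a library, or 17.8, 16.1, 24.1 and 11.9 CPM in small, 4.60, 26.8, 5.77 and 4.55 in medium and 5.52, 8.19, 7.64 and 3.04 in large seeds (1.48 ± 0.41, FDR = 0.010, edgeR). DI21, a drought-induced gene, had 44.6, 78.3, 96.2 and 59.3 CPM in small and 25.4, 51.6, 43.3 and 38.6 CPM in large seeds, and these overlapped (0.80 ± 0.23, FDR = 0.011, edgeR). Both calls were lost without the third small seed library. LEA14, an LEA_2 protein with a stable fold, was higher in small seeds (575, 554, 687 and 583 against 400, 438, 391 and 436 CPM, with no overlap, 0.53). The 3 LEA_1 genes (LEA4-1, LEA4-2 and LEA4-5, at means of 2662 to 4187 CPM in the 3 sizes) had differences of -0.18 to 0.11, and the 2 PvLEA18 genes tested by -0.26 and 0.11, none of them called. LEA4-1, the highest LEA_1 gene, had 4318, 3678, 2755 and 4040 CPM in small and 4129, 3995, 4399 and 4224 CPM in large seeds, and AT2G23110, the highest PvLEA18 gene, had 644, 615, 630 and 515 and 552, 538, 569 and 567 CPM, with overlap in both.

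**Figure D2:**
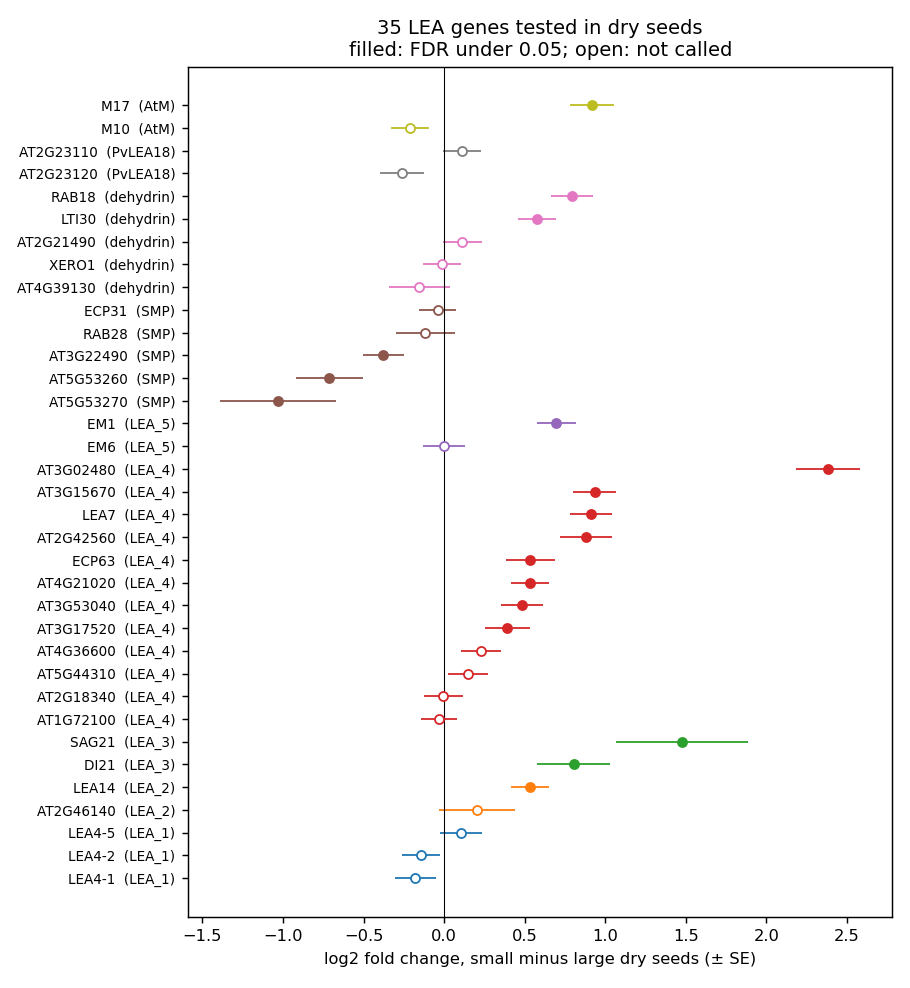
Log2 difference between small and large dry seeds for the 35 LEA genes tested, with its SE, grouped and coloured by subgroup; filled points passed an FDR of 0.05. The 8 filled LEA_4 points lie to the right of zero, led by AT3G02480 at 2.38, and the 3 filled SMP points to the left, down to -1.03.

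Medium seeds gave fewer calls. Against them, 8 members were higher in small seeds and none lower (3.51% of all genes called, 2.34% higher and 1.17% lower): AT3G02480 (1.72), M17 (0.81), LEA7 (0.64), AT3G15670 (0.60), RAB18 (0.50), EM1 (0.45), LTI30 (0.44) and LEA14 (0.44). With the seed pool as a block there were 10, AT2G42560 and AT4G21020 being gained. The calls of EM1 and LEA14 were lost without small seed library 3 or medium seed library 3 or 4, that of EM1 also without medium seed library 1, that of LTI30 without small seed library 1 or medium seed library 3, and that of RAB18 without medium seed library 4. Between medium and large seeds no member passed in edgeR (0.146% of all genes did), none in DESeq2, and 6 had an unadjusted p under 0.05, led by AT3G02480 (0.67, FDR = 0.23). With library totals in place of TMM factors the comparison with medium seeds called 4 higher and 6 lower.

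Storage protein and oil body genes moved with size in the same libraries. With TMM factors, 14 of 15 were called higher in small than in large seeds (median log2 difference 0.93), against 8.46% of all genes. Of 28 regulators of seed maturation, ABA response and cold response, 15 were tested and 2 were higher in small seeds, the dormancy gene DOG1 (1.27 ± 0.17) and EEL, a bZIP factor that binds the EM1 promoter (0.48 ± 0.13). ABI3 (0.04) and ABI5 (-0.18) were not called. The part of the storage transcripts in the LEA differences was not tested.

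Summed over the 51 genes, LEA mRNA made up 14.0 to 16.0% of the counts in small dry seeds (mean 15.4%), 13.6 to 14.6% in medium (14.1%) and 13.0 to 14.2% in large seeds (13.7%). The sizes overlapped. The third small seed library had the lowest LEA share of the 4 and a storage share of 26.1%, the highest of the 12 libraries, and the part of the one in the other was not tested. In imbibed seeds the share was 8.52 to 10.1% in small and 8.18 to 10.1% in large seeds at 3d. At 7d24h it was 3.41 to 4.43% in small and 2.54 to 3.14% in large seeds, so that the 2 sizes overlapped at 3d and not at 7d24h, and the 2 time points overlapped in neither size. The second small seed library at 7d24h stood apart at 3.41%, against 4.399 and 4.428% in the other 2.

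**Figure D3:**
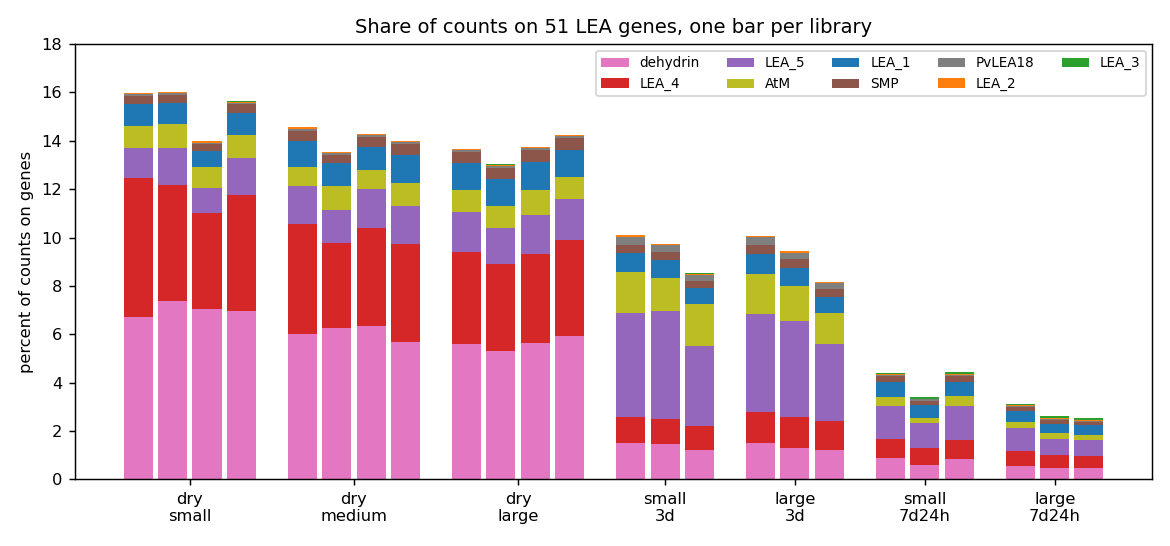
Percent of the counts on genes that fell on the 51 LEA genes, with 1 bar for each library and colours for the subgroups. Dry libraries lie between 13.0 and 16.0%, 3d libraries between 8.18 and 10.1% and 7d24h libraries between 2.54 and 4.43%, and the dehydrin part is larger in dry than in imbibed seeds.

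The make-up of the family differed between dry seeds and seeds after 3d. Dehydrins took 5.30 to 7.36% of all counts in dry and 1.21 to 1.504% in 3d libraries, and LEA_4 genes 3.51 to 5.76% and 0.983 to 1.30%. LEA_5 genes took 1.07 to 1.70% in dry and 3.18 to 4.45% in 3d libraries, and AtM genes 0.773 to 1.02% and 1.28 to 1.73%. EM6 was the most abundant member in imbibed seeds. The dry and the single-seed libraries were prepared differently, from purified RNA and from crude extracts, and no test was made between them.

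In imbibed seeds the sizes were first compared at 3d. The filter applied is modelled on that of the study, which used read numbers, but is computed on shares: genes were left out where their share of the counts had a Pearson correlation above 0.3 with the share of intergenic reads across the seeds of any group. On read numbers, which also follow the depth of a seed, 435 genes and 4 members would have passed. Of the 38 members with a mean of at least 1 count in a seed, 13 passed, and 25, which include EM1, EM6 and RAB18, did not. With the filter 0 of 13 members were called at 3d (0.326% of 6754 genes were, 0.207% higher and 0.118% lower in small seeds), and without it 0 of 38 (0.48% of 12078 genes were, 0.273% higher and 0.207% lower), where 6 had an unadjusted p under 0.05 in edgeR. Both counts are near the background, and 13 of the 51 members were not tested. EM6, for example, had 52055, 49307 and 33353 CPM in small and 45891, 43187 and 31814 CPM in large seeds at 3d, and RAB18 13994, 12319 and 9486 against 13042, 9815 and 8584 CPM.

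From 3d to 7d24h LEA mRNAs changed in both directions, and the balance depended on the filter. Among the 13 members that passed the filter, 4 rose and 6 fell in small seeds (65.9% of all genes were called, 32.8% up and 33.1% down) and 6 rose and 5 fell in large seeds (69.9%, 34.4% up and 35.5% down). Without the filter 6 rose and 27 fell of 38 in small seeds (65.6% of all genes called, 34.9% up and 30.7% down), and 7 rose and 29 fell in large seeds (70.2%, 36.7% up and 33.5% down). The member medians were -1.21 in small and -1.74 in large seeds without the filter, against 0.04 and 0.03 for all genes, and -0.04 and 0.12 with it, against -0.03 and -0.04. With library totals the median of all genes shifted by 0.64 and 0.62 without the filter and by 1.05 and 1.11 with it, and then 9 rose and 22 fell in small and 8 rose and 27 fell in large seeds without the filter. With the filter 8 rose and 3 fell in small and 8 rose and 4 fell in large seeds. All values that follow for changes with time, unless named otherwise, come from the fit without the filter, as it holds all 38 members. In the plan this fit was an alternative, and members that failed the filter were to be described by their levels without a test. Further checks on this fit were added after the data were seen.

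In LEA_5, EM6 fell from the 3d levels above to 9052, 6945 and 9358 CPM in small and 6226, 4177 and 4103 CPM in large seeds, log2 changes of -2.41 ± 0.26 and -3.06 ± 0.26. EM1 fell from 6377, 6922 and 5539 to 2110, 1403 and 1981 CPM in small seeds and from 7141, 5765 and 4877 to 1578, 1143 and 1069 CPM in large seeds (-1.78 and -2.23). No 7d24h library reached the lowest 3d library for either gene. The AtM pair fell as far, with log2 changes of -2.92 and -3.24 for M17 and -3.12 and -3.24 for M10 in small and large seeds. M17 went from 20664, 15213 and 18598 to 2718, 1626 and 2879 CPM in small seeds and from 19719, 15898 and 13015 to 1961, 1559 and 1636 CPM in large seeds.

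The largest falls among members called in both sizes were those of AT2G23110 (PvLEA18), from 4059, 3104 and 2124 to 369, 277 and 275 CPM in small seeds and from 3342, 2542 and 2031 to 142, 108 and 95.4 CPM in large seeds (-3.34 ± 0.26 and -4.52 ± 0.27). All 4 SMP genes tested fell, with changes of -1.21 to -2.31 in small and -1.87 to -3.49 in large seeds, with AT5G53270 at the far end of both ranges. All 3 LEA_1 genes fell in large seeds, and LEA4-5 was not called in small seeds (-0.35). Of 12 LEA_4 genes, 9 fell in small and 11 in large seeds, AT2G42560 the most (-1.74 and -3.19). LEA7 changed by -0.46 in large seeds and was not called in small ones (-0.28), while with the filter, which it passed, it fell in both (-0.70 in small and -0.96 in large seeds). With the filter and library totals its sign was positive in both sizes, and it was called as a rise in small seeds (0.36, FDR = 0.012, edgeR) and not in large ones (0.17, FDR = 0.20, edgeR). AT1G72100, AT4G21020 and AT5G44310 turned positive with library totals in small seeds only, and of these AT5G44310 was called as a rise (0.29, FDR = 0.027, edgeR).

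Dehydrins went both ways. RAB18 fell to 4588, 2848 and 4205 CPM in small and 2761, 2189 and 2157 CPM in large seeds (-1.62 ± 0.23 and -2.15 ± 0.23), and AT2G21490, XERO1 and AT4G39130 fell in both sizes. LTI30 fell in small seeds (-1.56) and was not called in large ones (-0.84). With the filter, which it passed, ERD14 fell in small seeds (-1.03, FDR = 0.014, edgeR) and was not called in large ones (-0.04). It had only 10 to 23 counts in a 3d library. HIRD11 (AT1G54410), a histidine-rich dehydrin, rose from 2.53, 4.64 and 8.06 to 29.0, 60.8 and 28.9 CPM in small seeds and from 10.6, 12.2 and 11.3 to 67.7, 65.2 and 64.3 CPM in large seeds (3.00 ± 0.38 and 2.53 ± 0.31). With the filter its changes were 2.58 and 2.04. COR47, a cold-induced dehydrin, had 1, 0 and 0 counts in the small and 4, 4 and 0 counts in the large seed libraries at 3d, and 212, 267 and 130 and 186, 208 and 601 counts at 7d24h. These are called as rises in both sizes, and no fold is given from so few counts at 3d.

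SAG21 (chr4:1046042-1047105) had counts in every library and rose from a low level. It went from 4.22, 3.10 and 7.05 to 151, 315 and 161 CPM in small seeds and from 1.06, 4.06 and 1.74 to 435, 495 and 415 CPM in large seeds, log2 changes of 5.45 ± 0.36 and 7.56 ± 0.40 (FDR = 1.8e-08 and 2.0e-09, edgeR). The 3d values rest on 2 to 14 counts in a library, and with the filter the changes were 5.02 and 7.08. The other LEA_3 gene, DI21, rose from 93.8, 95.4 and 115 to 215, 264 and 237 CPM in small and from 77.1, 79.7 and 60.8 to 221, 235 and 239 CPM in large seeds (1.24 and 1.68). AT3G02480 rose from 75.2, 35.1 and 163 to 152, 411 and 127 CPM in small seeds, where the time points overlapped (1.34 ± 0.48, FDR = 0.023, edgeR, and 0.91, FDR = 0.070 with the filter). In large seeds it rose from 140, 92.8 and 62.5 to 387, 373 and 420 CPM (2.01 ± 0.48). AT2G46140 (LEA_2) rose by 0.65 and 1.00, and by 0.24 (FDR = 0.31, edgeR) and 0.51 with the filter. Without the filter, the 6 members that rose in both sizes were SAG21, HIRD11, AT3G02480, DI21, AT2G46140 and COR47. With it, AT3G02480 and AT2G46140 were called in large seeds only.

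**Figure D4:**
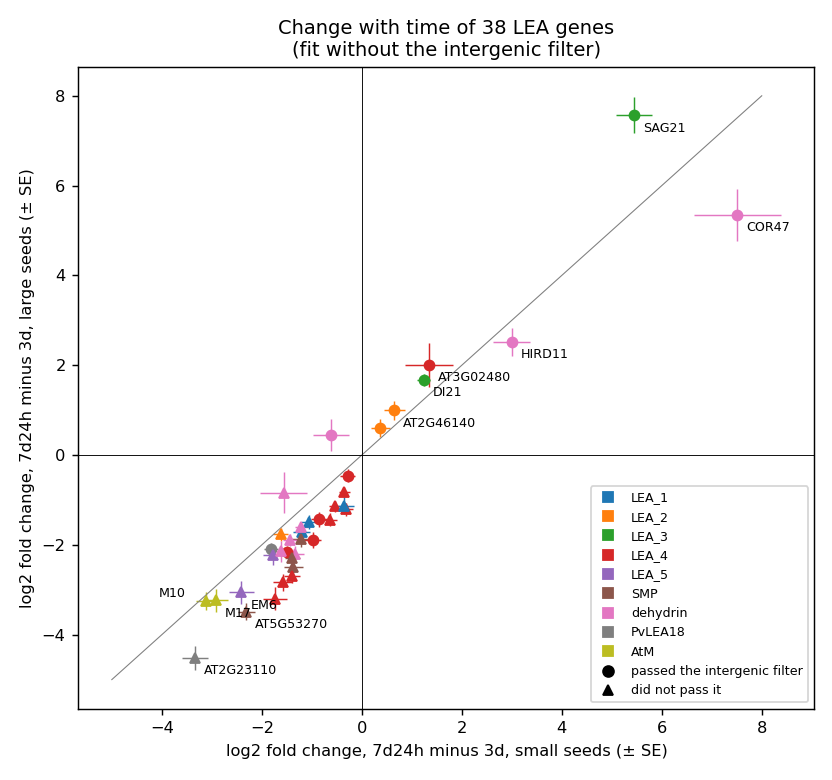
Change from 3d to 7d24h on the log2 scale in small seeds (x axis) and large seeds (y axis) for 38 LEA genes, with SE bars, in the fit without the intergenic filter. The line marks equal change; most members lie below it on the left, such as AT2G23110 at -3.34 and -4.52, and SAG21 stands at 5.45 and 7.56.

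All 26 members that fell in both sizes had the larger fall in large seeds. The same count over all genes was not made, and the members were read from the same libraries. The difference for single genes had its own test. In the test of the interaction of size and time, 0 of 13 members were called with the filter (0.296% of all genes, 4 members at an unadjusted p under 0.05, 0.133% of all genes higher and 0.163% lower, and 1 member in DESeq2). Without it 2 of 38 were called (0.546% of all genes, 0.364% positive and 0.182% negative), both of LEA_4. AT3G17520 fell from 3544, 3317 and 2941 to 1413, 1073 and 1253 CPM in small and from 4406, 4107 and 3742 to 776, 604 and 523 CPM in large seeds, an interaction of 1.30 ± 0.23 (FDR = 0.019, edgeR). AT3G53040 fell from 1871, 1822 and 1472 to 610, 458 and 657 CPM in small and from 2333, 2064 and 1856 to 359, 296 and 224 CPM in large seeds (1.25 ± 0.26, FDR = 0.046, edgeR). Other settings without the filter called more members, 13 in DESeq2, 10 with library number as a block and 9 with library totals. Leaving out 1 library gave 0 to 7 calls. AT3G53040 was kept only without the second small or the first large library at 7d24h, and AT3G17520 also without the first small or the third large library at 3d, or the third small one at 7d24h.

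At 7d24h some LEA mRNAs were higher in small seeds than in large ones. With the filter 2 of 13 members were called (1.27% of all genes, 0.666% higher and 0.607% lower), ECP63 higher in small seeds (378, 333 and 342 against 229, 191 and 193 CPM, 0.86, FDR = 0.025, edgeR) and SAG21 higher in large seeds (-1.04, FDR = 0.019, edgeR), and the median of the 13 was 0.04. Without the filter 10 of 38 were higher in small seeds and SAG21 lower (3.28% of all genes, 2.38% higher and 0.902% lower), and 28 of 38 had a positive difference, with a median of 0.43 against -0.02 for all genes. The 10 were AT2G42560 (522, 372 and 404 against 200, 144 and 102 CPM, 1.55 ± 0.25), AT2G23110 (1.42), RAB28 (31.4, 30.8 and 36.1 against 19.7, 14.0 and 14.8 CPM, 1.02), AT5G53270 (0.98), AT3G17520 (0.98), AT3G53040 (0.97), ECP63 (0.78), AT2G21490 (0.78), AT3G22490 (422, 330 and 457 against 276, 231 and 215 CPM, 0.74) and AT1G72100 (0.56). All 10 were tested in dry seeds. There 4 of them, AT2G42560, AT3G17520, AT3G53040 and ECP63, were called higher in small seeds, and AT3G22490 and AT5G53270 lower. Of the 34 members tested in both dry and imbibed seeds, 15 were called higher in small dry seeds, a rate near that of the 10. EM6 (0.81, FDR = 0.085, edgeR) and RAB18 (0.71, FDR = 0.089, edgeR) did not pass, though their libraries did not overlap.

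These calls depend on single libraries. Without the second small seed library, the one with the lowest LEA share, there were 23 calls without the filter and 4 with it. Without the first small, the second large or the third large library there were 0 in both fits. In that second small seed library SAG21 stood at 315 CPM, against 151 and 161 CPM in the other 2 and 415 to 495 CPM in large seeds. AT3G02480 stood at 411 CPM there, against 152 and 127 CPM in the other 2 and 373 to 420 CPM in large seeds. The leaf gene RBCS1A lay at 17.0 to 36.7 CPM at 3d and 131 to 239 CPM at 7d24h, the other 6 leaf genes did not exceed 34.0 CPM, and their part in the LEA changes was not tested.

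Single seeds spread further apart at 7d24h than at 3d. After thinning every seed to 20000 counts (95, 92, 95 and 96 seeds remained), the LEA share had a median of 9.27% in small (range 6.82 to 11.5%) and 9.02% in large seeds (7.23 to 11.4%) at 3d. At 7d24h it was 5.58% in small (0.475 to 6.85%) and 3.38% in large seeds (0.495 to 6.34%). The library values and tests above rest on summed counts, so they weight a seed by its depth (10168 to 463684 counts in small 7d24h seeds). Their mean LEA share at 7d24h was 4.08% in small and 2.76% in large seeds. The seed medians of single libraries were 4.975 to 5.90% and 3.02 to 4.17%. The coefficient of variation was 0.099 and 0.111 at 3d and 0.423 and 0.538 at 7d24h (0.099, 0.122, 0.429 and 0.532 without thinning). Below 2%, a limit chosen after the values were seen, there were 17 of 95 small seeds (3 to 9 in a library) and 32 of 96 large seeds (10 to 12 in a library) at 7d24h, and none at 3d.

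The LEA genes varied together across the seeds of 7d24h. The median Spearman correlation between pairs of members was 0.02 in small and 0.05 in large seeds at 3d (435 pairs each), and 0.38 (465 pairs, 95 seeds) and 0.32 (528 pairs, 96 seeds) at 7d24h. These are descriptions, since the seeds of a library share its preparation and each gene's count takes from the same fixed total. No value for pairs of other genes stands beside them. The members entered were 30 in each size at 3d, and 31 in small and 33 in large seeds at 7d24h. In large seeds at 7d24h, RAB18 (rho = 0.92 with the sum of the other members), ECP31 (0.91) and EM6 (0.91) followed the rest most closely, and the 2 most alike genes were RAB18 and EM6 (0.93). SAG21 (-0.85), COR47 (-0.65) and AT3G02480 (-0.48) ran against the rest. In small seeds RAB18 was at 0.80 and SAG21 at -0.75. EM6 had a median of 681 thinned counts in small 3d seeds (238 to 1024 in single seeds) and 139 in large 7d24h seeds (0 to 479).

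SAG21 was detected in 4.2% of small and 4.3% of large seeds at 3d, and in 73.7% of small and 92.7% of large seeds at 7d24h after thinning (17.7, 12.5, 97.9 and 100% unthinned). COR47, with its few counts at 3d, was detected in 14.7% of small and 31.2% of large seeds at 7d24h. The share of intergenic reads moved with the LEA share among large seeds at 7d24h (Spearman rho = 0.641, 96 seeds, against -0.347, -0.222 and 0.208 in small 3d, large 3d and small 7d24h seeds). In that group 25 of 38 members exceeded the correlation limit of 0.3, against 0 and 0 at 3d and 3 in small seeds at 7d24h. The median correlation there was 0.606 for the members and 0.090 for 12078 genes, of which 28.4% exceeded the limit. The part of intergenic reads in the LEA values was not tested.

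**Figure D5:**
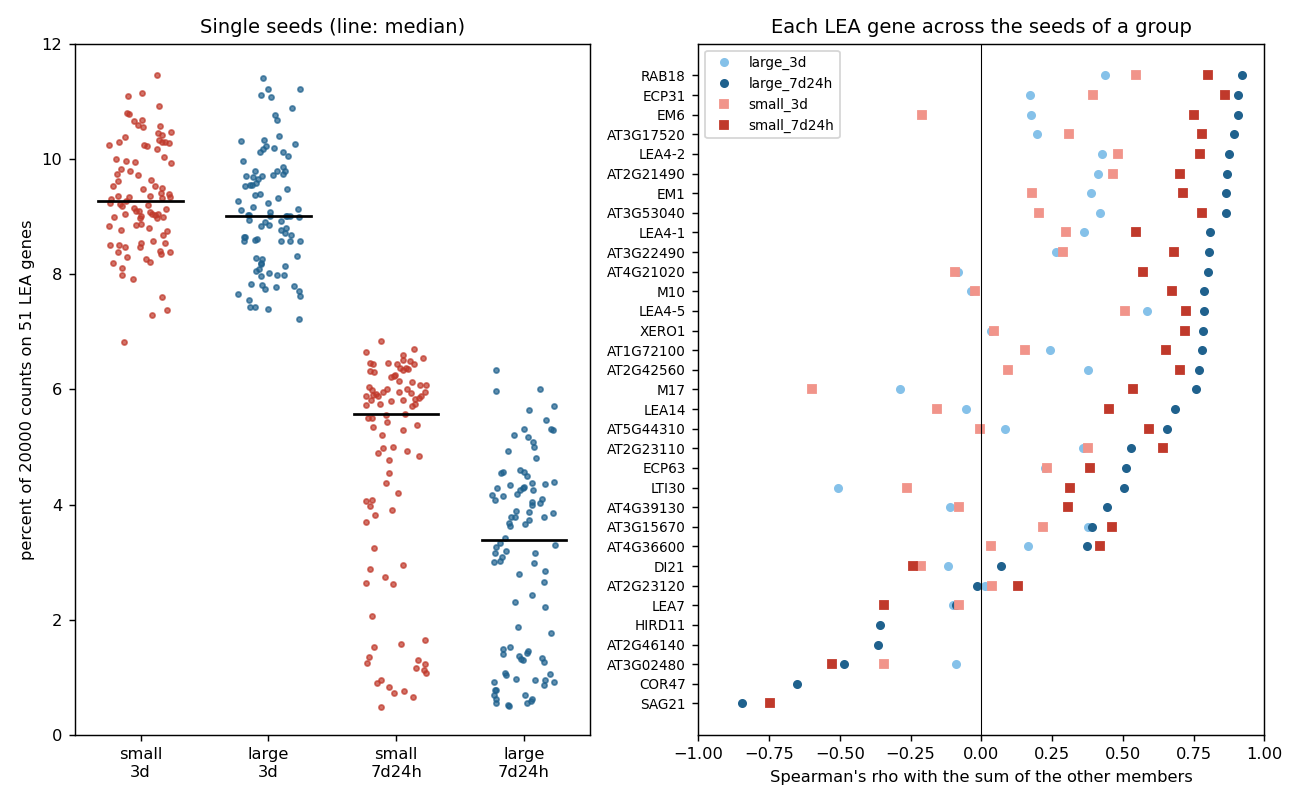
Left, percent of 20000 thinned counts that fell on LEA genes in each single seed, with group medians as lines; right, Spearman's rho of each gene with the sum of the other members across the seeds of a group. The 3d seeds lie above 6.8%, the 7d24h seeds reach down to 0.475%, and RAB18 and SAG21 stand at opposite ends on the right, at 0.92 and -0.85 in large 7d24h seeds.

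Storage genes fell over the same interval, 13 of 15 in small and 15 of 15 in large seeds without the filter (medians -4.04 and -3.89). Of 16 regulators tested, 9 fell in each size, among them ABI5 (-1.11 and -1.08), ABI3 (-0.68 and -1.26), ABF4 (-1.88 and -2.46) and DOG1 (-3.09 and -3.48), and ABI4 rose (1.55 and 1.85). None of them was called in the interaction. The study states that DOG1 in imbibed seeds was below what its single-seed method could detect. Summed by library, DOG1 stood at 31.3, 83.1 and 113 CPM in small seeds at 3d. In large seeds it stood at 56.9, 112 and 179 CPM at 3d, and it did not exceed 16.2 CPM at 7d24h.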

How the data were processed

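Per the labels and the methods of the study, mRNA was reverse-transcribed with barcoded oligo(dT) primers carrying unique molecular identifiers and the 3′ ends were sequenced. The authors deposited raw counts of reads per gene, and the submitters' processing notes name STAR 2.7.8a, TAIR10, Seurat and DESeq2. The study names UMI-tools for deduplicated alignments shown at a locus. For the gene counts, the counting program, its strand setting and whether molecular identifiers were collapsed are not given in the sources used here. Dry seed libraries came from purified RNA and single seeds from crushed seed extracts. The 12 dry seed columns were matched to size and seed pool by their names and the barcode list of the study.

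Genes were tested with edgeR 4.0.16 (quasi-likelihood, TMM, two-sided) in R 4.3.3, with Benjamini-Hochberg adjustment over all genes in the table, and SE was the fold change over the square root of F. Dry seed libraries entered one fit of 8234 genes. Single-seed counts were summed by library, over genes that averaged 1 count or more in a seed and had a correlation with the intergenic share of at most 0.3 (6754 of 12078). Rows that name no gene were left out, and intergenic reads made up 9.76% and ambiguous reads 0.256% of the counted reads. Python 3.11.15 (numpy 2.4.6, pandas 2.3.3, scipy 1.17.1) was used for single-seed values, thinned to 20000 counts. Alternatives were DESeq2 1.42.0, other scaling and filters, thinned counts, replicate blocks and leaving out each library. The fits were tested on simulated data.

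Dry seeds of a pool share their source. The residuals of libraries of one pool had a mean correlation of 0.016 (-0.0053 between pools, 2 of 12 pairs above 0.1), and the blocked fit was an alternative. The members, the gene lists and the alternatives were chosen with earlier results of these data known. Any member could be named. Values in every library were planned for the 3 most abundant members and the highest of each subgroup in dry seeds. They were also planned for the 4 largest called changes in each direction between small and large dry seeds and with time. Up to 6 members called between sizes at 7d24h and up to 4 in the interaction were to be added. M10 is given by means and changes only, and AT5G53270 in imbibed seeds by its changes. For several genes the medium seed libraries are left out.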

Additional observations from a re-analysis of the deposited data

Results flagged for a closer look

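In dry seeds, 6 of 108 groups of 4 libraries held a library apart from the other 3 by Dixon's criterion, where chance gives about 5%. AT3G02480 stood at 2025 CPM in the third small seed library against 765 to 935 CPM, and at 152 CPM in the fourth large seed library against 242 to 254 CPM. RAB28 stood at 78.4 CPM in the third large seed library against 65.9 to 67.4 CPM. AT2G46140 was at 32.0 CPM in the first large seed library against 20.3 to 21.9 CPM. LTI30 was at 1440 CPM in the third medium seed library against 1596 to 1622 CPM. SAG21 was at 26.8 CPM in the second medium seed library against 4.55 to 5.77 CPM.

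The size difference changed between 3d and 7d24h for 2 LEA_4 genes in the interaction test without the intergenic filter, by 1.30 on the log2 scale for AT3G17520 and by 1.25 for AT3G53040.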

How the results depend on the processing

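Of 2493 checks of 131 single gene results, 2323 kept direction and call, 163 lost the call and 7 turned sign. The latter, with library totals in place of TMM factors, were changes with time of LEA7 (0.17 in large seeds in both fits, 0.36 in small seeds), ERD14 (0.021), AT1G72100 (0.0012), AT4G21020 (0.091) and AT5G44310 (0.29). Those of LEA7 and AT5G44310 in small seeds were then called as rises. Between medium and large dry seeds 1 member was called with no filter on low counts. Without the intergenic filter, 36 and 33 members changed with time in large and small seeds, 2 in the interaction and 11 between sizes at 7d24h. With the filter, the interaction called 1 by DESeq2 or library totals and 2 by upper-quartile factors or thinned seeds, and 4 members differed at 7d24h in thinned seeds. Without the filter, the interaction called 13 by DESeq2, 4 by upper-quartile factors or thinned seeds and 9 by library totals, and 17 differed at 7d24h by DESeq2 or in thinned seeds. The coefficient of variation of large 3d seeds was 0.122 unthinned. The cause was not tested.

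With the seed pool as a replicate block, 17, 10 and 0 members were called between small and large, small and medium, and medium and large dry seeds. Imbibed libraries share only a number (mean residual correlation 0.059, other pairs -0.029, 5 of 18 pairs above 0.1). With it as a block, the filtered fit called 11 and 10 with time in large and small seeds, 1 in the interaction, 0 at 3d and 3 at 7d24h, and the unfiltered fit 37, 34, 10, 0 and 18.

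Leaving out 1 library gave 13 to 18, 5 to 11 and 0 to 1 calls in the dry comparisons. It gave 10 to 11 with time in either size, 0 to 1 in the interaction, 0 to 0 at 3d and 0 to 4 at 7d24h with the filter, and 35 to 37 and 31 to 37 with time, 0 to 7, 0 to 0 and 0 to 23 without it. The shallowest dry library held 554305 counts, and SAG21, AT5G53270 and the untested members are limited by depth. Of the members, 10 overlap another annotated gene. RAB18 does so over 11 bases and LEA7 over 297 bases, each with a gene on the opposite strand. SAG21 shares 180 bases with a gene on the same strand. Without a stated strand setting and counting program, it is not known how reads within such stretches were assigned.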
